A study of Mus with 8 samples.

Results

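The genes described here mark the cells of blood vessels in brown fat, the depot between the shoulder blades that burns fuel to make heat. They are 34 listed genes of endothelial and mural cells, chosen by name, of 30702 genes compared. Of the 34, 33 were measured by a probe set annotated to 1 gene: 19 of capillary endothelium, 4 of tip cells and 10 of mural cells (6 of pericytes and 4 of contractile smooth muscle). The only probe set of Egfl7, a secreted angiogenic factor, is annotated to a microRNA as well, so Egfl7 has no value here. Transcripts of brown fat were measured on 8 arrays, from 4 mice labelled as Hilpda knockout (KO) and 4 labelled as wild type (WT), all labelled female and C57BL/6. The labels give no age, diet or housing temperature, and they do not say which allele was used or whether the gene was lost in all cells. The product of Hilpda sits on lipid droplets and inhibits adipose triglyceride lipase, and the comparison asked how the vascular genes of brown fat stand when it is lost.

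Brown fat is among the most densely vascularised tissues, and its capillaries bring oxygen and fatty acids to the adipocytes and carry heat away. Endothelial cells line these capillaries, held together by junction proteins. Growth of a new branch is led by a tip cell, which senses VEGF and restrains its neighbours through the Notch ligand Dll4. Mural cells wrap the outside: pericytes sit on capillaries and are recruited by PDGF-B through its receptor Pdgfrb, and smooth muscle cells surround arterioles and contract.

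The arrays formed 2 sets, of which the labels say nothing. Arrays numbered 1 and 2 of both genotypes (set 1) had a median of named genes of 3.93 to 3.99 in log2 units, and those numbered 3 and 4 (set 2) had 4.92 to 4.97, so levels are compared within a set only. Hilpda read 4.45 and 4.37 in the KO and 4.37 and 4.28 in the WT arrays of set 1, against 5.60 and 5.51 in the KO and 6.00 and 5.92 in the WT arrays of set 2. It was lower in the arrays labelled KO in set 2 only, and no source used here says whether its probe set lies inside the deleted part. Albumin, a liver transcript, was present in set 1, at 19.23 and 15.81 in the KO and 14.51 and 10.03 in the WT arrays, and was at most 5.23 in set 2. The Y-linked genes Uty (9.31 to 10.93) and Kdm5d (7.00 to 8.63) were high and Xist (3.49 to 4.10) was low on every array, which goes against the label of female mice in both genotypes. Directions below refer to the arrays as labelled, and nothing in the labels beyond separate animals says how replicates were raised.

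The vascular label held up in the data. Of the 33 measured genes, 29 lay above background on all 8 arrays, beside 13770 of all 30702 genes. Background was set at the 95th percentile of 1088 genes for olfactory receptors, which are mostly silent outside the nose. These 29 include every defining endothelial marker measured (Pecam1, Cdh5, Kdr, Tie1, Emcn, Erg and Cldn5) and all 6 pericyte genes. Sox18 was above that background on 7 arrays and Cnn1 on 6, both missing it in KO arrays of set 1. The tip cell genes Apln and Esm1 were above it on 0 arrays and have no measured direction. In whole tissue, fewer cells of a type and less RNA per cell cannot be told apart.

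No vascular gene differed between KO and WT past the threshold. In limma's fit with the array set as a block, 0 of 33 passed an adjusted p of 0.05 (0.0% of all genes passed), and every member had an adjusted p of at least 0.984. The 19 capillary genes had a median difference, KO minus WT, of 0.0053 in log2 units, with 11 higher and 8 lower. The 10 mural genes had a median of -0.074, with 9 lower and 1 higher, and the 4 tip cell genes a median of -0.11. For Dll4 and Angpt2, the only tip cell genes above background, it was -0.18. Over all 30702 genes the median was 0.0074, with 16141 higher and 14561 lower. Of the 17048 genes above background, 9119 were lower. At an unadjusted p under 0.05 stood 3 members (Sox18, Robo4 and Kcnj8), or 9.09% of them, beside 4.82% of all genes.

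Within the array sets no member passed either. In set 1 the count was 0 (0.0% of all genes) and in set 2 also 0 (0.00326% of all genes, which is 1 gene). When the sets were tested against each other, 0 members passed as well, beside 0.498% of all genes (153 genes). For 115 of those 153 genes, KO minus WT was higher in set 2 than in set 1. KO minus WT had opposite signs in the sets for 18 of the 33 members, a share near that of all genes (17498 of 30702). At an unadjusted p under 0.05 stood 3 members in set 1 (beside 7.74% of all genes), 5 in set 2 (beside 15.1% of all genes) and 7 in the test between the sets. That 7 is 21.2% of the members, beside 14.9% of all genes and 23.1% of genes above background, so the members' share lay near that of other expressed genes. Those 7 were Cldn5, Pecam1, Eng, Ptprb, Cspg4, Abcc9 and Notch3.

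Which values overlapped also depended on the set. In set 1, KO and WT values did not overlap for 13 members, 6 with KO above and 7 with KO below, where 38.4% of all genes did not overlap (19.0% above and 19.4% below). In set 2 they did not overlap for 16 members, 4 above and 12 below, where 43.0% of all genes did not overlap (23.9% above and 19.1% below). The 12 below in set 2 were 7 capillary genes and 5 pericyte genes. KO lay on the same side of WT in both sets for 2 members, Robo4 and Sox18 (5.3% of all genes), and on opposite sides for 5, namely Cldn5, Pecam1, Eng, Ptprb and Notch3 (12.7% of all genes).

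**Figure D1:**
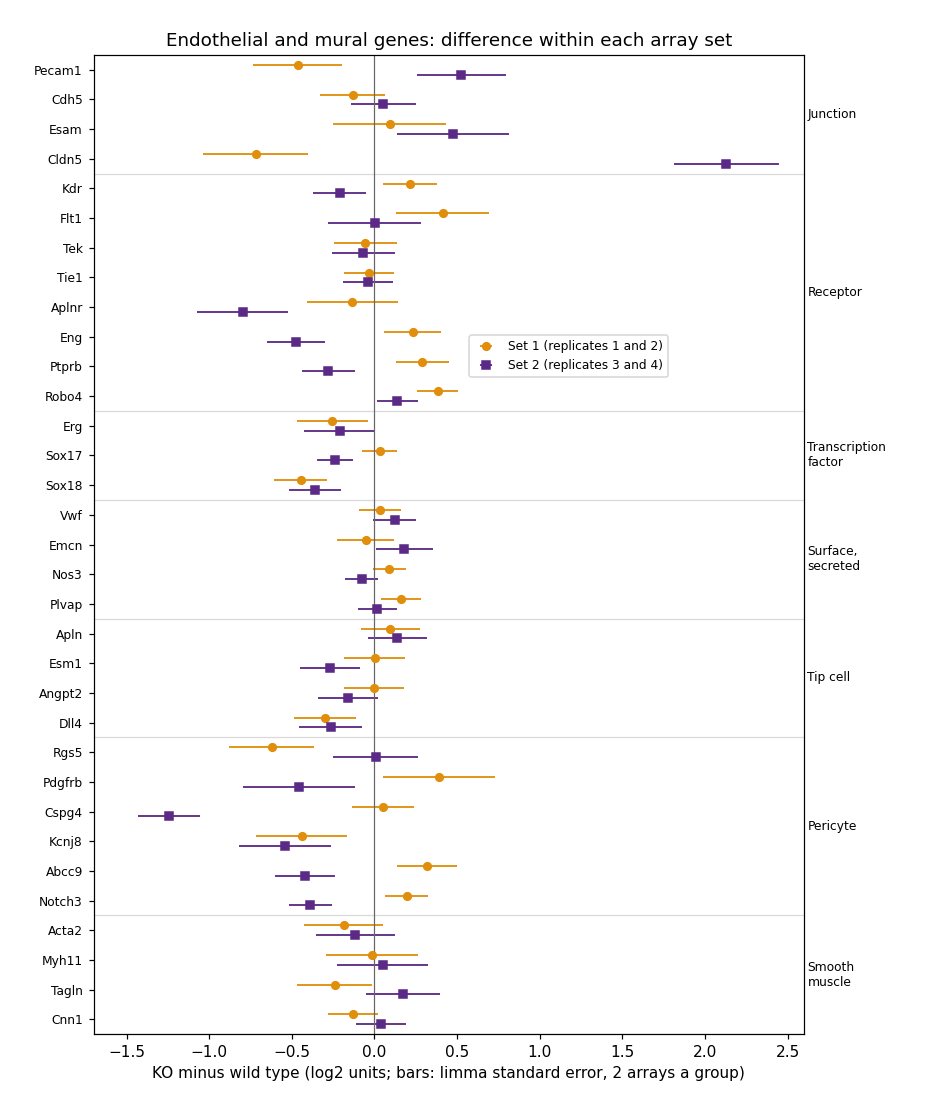
KO minus WT in log2 units for the 33 measured genes, with circles for set 1 and squares for set 2 and bars for the limma standard error (2 arrays a group). Cldn5 lies at -0.72 and 2.13, Cspg4 at 0.05 and -1.24, and most other genes lie within 0.5 of 0.

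Endothelial junction genes stood higher in the KO arrays of set 2 and mostly lower in those of set 1. All 4 of them were higher in set 2, by a median of 0.50, and 3 of 4 were lower in set 1, where the median was -0.30. Of the 17048 genes above background, 9421 were also higher in set 2 and 10134 lower in set 1. The range was wide: 0.05 to 2.13 in set 2.

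Cldn5 (gene 12741), the claudin that seals endothelial tight junctions, had the widest split. In set 1 it read 5.80 and 5.60 in KO against 5.86 and 6.97 in WT. The set 2 values were 9.14 and 9.29 in KO against 7.11 and 7.07 in WT. Both KO arrays were thus below WT in set 1 and above WT in set 2, and the groups overlapped in neither set. The difference in set 2 was 2.13 (SE 0.32), a 4.38-fold higher value in KO (95% interval 1.37 to 2.89 in log2 units), with a limma adjusted p of 0.0847. In set 1 the difference was -0.72 (SE 0.32), of which WT replicate 2 set most: WT replicate 1 lay 0.07 above the nearest KO array. The difference between the sets was 2.85 (SE 0.45, adjusted p = 0.0584). When only the 17048 genes above background were tested, that adjusted p was 0.0411, past the threshold, and over the other alternatives it ran from 0.0583 to 0.205.

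Pecam1, the adhesion molecule at endothelial cell borders, showed the same order in a smaller range. It read 9.84 and 10.13 in KO and 10.15 and 10.76 in WT in set 1. Its set 2 values were 12.08 and 12.45 in KO and 11.47 and 12.01 in WT. KO values were below WT in set 1 by 0.01 at the nearest arrays and above in set 2, and the difference between the sets of 0.99 (SE 0.38) did not pass (adjusted p = 0.286). Esam, an adhesion molecule of endothelial tight junctions, read 6.86 and 7.44 in KO against 6.58 and 7.53 in WT in set 1, and 8.79 and 9.03 against 8.22 and 8.66 in set 2. Its groups overlapped in set 1 only, and over both sets it differed by 0.28 (SE 0.24). Cdh5, the VE-cadherin of adherens junctions, was the flattest of the 4: 12.29 and 12.51 in KO against 12.24 and 12.83 in WT, then 13.66 and 13.80 against 13.65 and 13.70. Its difference was -0.04 (SE 0.14), with a 95% interval from -0.35 to 0.28.

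Among the 8 receptors of growth factors and peptides, 5 were higher in the KO arrays of set 1 and 6 were lower in those of set 2. Their median difference was 0.22 in set 1 and -0.14 in set 2. Kdr, the main VEGF receptor, read 10.89 and 10.70 in KO and 10.36 and 10.80 in WT in set 1. In set 2 it read 11.95 and 11.90 in KO and 12.07 and 12.21 in WT. Its set differences of 0.21 and -0.21 left 0.00 over both sets, with a 95% interval of -0.31 to 0.31. Flt1, a decoy receptor that binds VEGF, differed by 0.41 (SE 0.28) in set 1 and 0.00 in set 2. The angiopoietin receptor Tek and its partner Tie1 lay within 0.07 of 0 in both sets, and the interval of Tie1 over both sets was -0.27 to 0.20.

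Aplnr, the apelin receptor of sprouting and venous endothelium, had the lowest set 2 difference of the receptors. It read 4.43 and 4.28 in KO against 4.87 and 4.10 in WT in set 1, and 5.84 and 5.41 against 6.60 and 6.23 in set 2. KO lay below WT in set 2 only, where the difference was -0.80 (SE 0.28, adjusted p = 0.245). Over both sets it was -0.47 (SE 0.22). Eng, a TGF-beta co-receptor, read 9.00 and 8.97 in KO and 8.56 and 8.94 in WT in set 1. In set 2 it read 10.05 in both KO arrays and 10.73 and 10.32 in WT, so KO was above WT in set 1 and below it in set 2. The difference between the sets was -0.70 (SE 0.25, adjusted p = 0.245).

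Ptprb, the phosphatase VE-PTP that acts on Tek, followed Eng: 10.12 and 10.32 in KO against 9.74 and 10.11 in WT, then 11.44 and 11.53 against 11.64 and 11.89. Its KO values were above WT by 0.01 at the nearest arrays of set 1 and below WT in set 2, and the difference between the sets was -0.57 (SE 0.23, adjusted p = 0.305). Robo4, an endothelial receptor that stabilises vessels, was the one member whose KO values were above WT in both sets. It read 6.00 and 6.12 in KO against 5.56 and 5.79 in WT in set 1, and 7.48 and 7.51 against 7.26 and 7.46 in set 2. The difference was 0.38 in set 1 and 0.14 in set 2, and 0.26 over both (SE 0.10, adjusted p = 0.984).

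The 3 endothelial transcription factors were all lower in KO over both sets. Sox18, a SoxF factor of vessel and lymphatic development, had the smallest unadjusted p of all members. It read 3.84 and 3.88 in KO against 4.23 and 4.38 in WT in set 1, and 6.11 and 6.42 against 6.80 and 6.45 in set 2. KO lay below WT in both sets, by 0.03 at the nearest arrays of set 2, and in set 1 the KO values were near background. The difference was -0.40 (SE 0.11, adjusted p = 0.984), made up of -0.45 in set 1 and -0.36 in set 2. Its relative Sox17, an arterial factor, differed by 0.03 and -0.24 in the sets, and Erg, an ETS factor that maintains endothelial identity, by -0.25 and -0.21. Neither had separate groups in set 1, and both had KO below WT in set 2.

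Surface and secreted endothelial proteins were the steadiest role. Vwf, the clotting factor stored in endothelium, differed by 0.08 (SE 0.09), Emcn, a sialomucin of capillaries and veins, by 0.06 (SE 0.12), Nos3, the endothelial nitric oxide synthase, by 0.01 (SE 0.07) and Plvap, the diaphragm protein of fenestrae, by 0.09 (SE 0.09). All 4 lay within 0.2 of 0 in each set, and KO and WT overlapped in set 2 for all 4. In set 1 KO lay above WT for Nos3, by 0.03 at the nearest arrays, and for Plvap, by 0.05. Of all genes, 19.0% lay so in set 1. Vwf and Plvap read 3.84 to 4.26 in set 1, near the background of 3.81 to 3.97, so little can be read from their small differences there.

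Tip cell genes gave little to compare. Dll4, the Notch ligand of tip and arterial cells, was the 1 of the 4 with a level well above background. It read 5.97 and 6.03 in KO against 6.12 and 6.48 in WT in set 1, and 7.03 and 7.32 against 7.23 and 7.65 in set 2. KO was below WT in set 1 and the groups overlapped in set 2, and the difference was -0.28 (SE 0.13, adjusted p = 0.984), with -0.30 and -0.26 in the sets. Angpt2, which loosens pericyte contact, read 4.03 to 4.15 in set 1 and 4.86 to 5.40 in set 2 and differed by -0.08 (SE 0.13). Apln, the apelin peptide, was at 3.22, 3.49, 4.63 and 4.14 in KO arrays 1 to 4 and 3.32, 3.19, 4.26 and 4.23 in WT. Esm1, the tip cell proteoglycan endocan, read 3.22, 3.24, 3.50 and 3.65 in KO and 3.29, 3.17, 4.13 and 3.56 in WT. These values of Apln and Esm1 were not above background on any array.

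Most pericyte genes among the members lay below WT in the KO arrays of set 2. In that set 5 of 6 were lower, with a median of -0.44, and the KO values of those 5 lay below WT without overlap, as did 19.1% of all genes. The 24 other measured mural and smooth muscle genes, described below, were split in set 2. Of them 11 were higher and 13 lower, with a median of -0.042. In set 1, 4 of the 6 pericyte members were higher, with a median of 0.12. Over both sets all 6 were lower, with a median of -0.20, and 1 of them had an unadjusted p under 0.05 (4.82% of all genes).

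Cspg4 (gene 121021), the NG2 proteoglycan of pericytes, had the largest of these differences. It read 4.63 and 4.74 in KO and 4.64 and 4.62 in WT in set 1. The set 2 values were 5.69 and 5.44 in KO and 7.08 and 6.53 in WT, so the genotypes overlapped in set 1 and lay apart in set 2. The set 2 difference was -1.24 (SE 0.19, adjusted p = 0.0877), with WT 2.36-fold above KO and a 95% interval of -1.69 to -0.79 in log2 units. The set 1 difference was 0.05, the difference between the sets -1.29 (SE 0.27, adjusted p = 0.0927), and over its alternatives that adjusted p ran from 0.0668 to 0.241. Without any 1 array the set 2 difference stayed between -1.52 and -0.96.

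The channel subunits of pericytes, which form an ATP-sensitive potassium channel that lowers vessel tone, both had KO below WT in set 2. Kcnj8, the pore, read 7.13 and 6.46 in KO against 7.50 and 6.96 in WT in set 1, and 7.93 and 7.53 against 8.18 and 8.36 in set 2. It was lower in both sets, with differences of -0.44 and -0.54 and overlap in set 1, and the difference over both was -0.49 (SE 0.19, adjusted p = 0.984). Abcc9, the regulatory subunit, read 9.41 and 9.86 in KO against 9.16 and 9.48 in WT, then 11.02 and 11.05 against 11.35 and 11.56. Its difference was 0.32 in set 1, where the groups overlapped, and -0.42 in set 2, where KO lay below WT. The difference between the sets was -0.74 (SE 0.26, adjusted p = 0.246).

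Notch3, the Notch receptor of mural cells, read 4.83 and 4.94 in KO against 4.56 and 4.82 in WT in set 1, and 5.99 and 6.19 against 6.41 and 6.54 in set 2. KO was above WT in set 1, by 0.01 at the nearest arrays, and below it in set 2, and the difference between the sets was -0.58 (SE 0.19, adjusted p = 0.214). Pdgfrb, the receptor for PDGF-B, differed by 0.39 (SE 0.34) and -0.46 (SE 0.34). It read 9.15 and 9.07 in KO and 9.37 and 9.76 in WT in set 2, where KO was below WT. Rgs5, a regulator of G-protein signalling abundant in pericytes, ran the other way. It read 12.82 and 13.52 in KO and 13.55 and 14.04 in WT in set 1, with KO below WT by 0.03 at the nearest arrays and a difference of -0.62 (SE 0.26, adjusted p = 0.636). In set 2 it read 15.41 and 15.57 in KO and 15.38 and 15.58 in WT, a difference of 0.01 (SE 0.26).

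**Figure D2:**
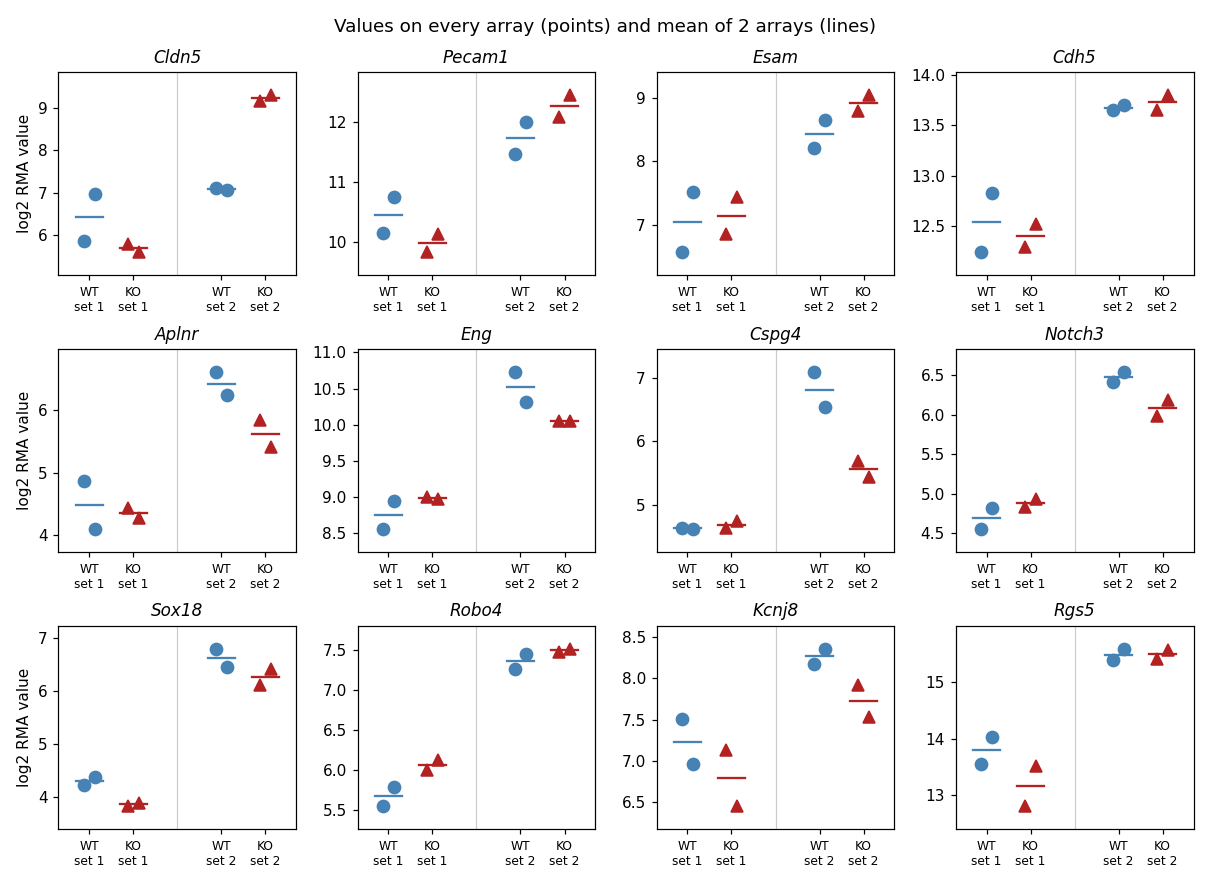
Log2 values of 12 of the genes on every array (circles for WT, triangles for KO) with lines for the mean of 2 arrays, by set; the vertical axis differs between panels. Cldn5 in set 2 has KO at 9.14 and 9.29 above WT at 7.11 and 7.07, and Cspg4 has KO at 5.69 and 5.44 below WT at 7.08 and 6.53.

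The contractile smooth muscle genes did not share the set 2 pattern of the pericyte genes. Their median difference was -0.16 in set 1 and 0.05 in set 2, and KO and WT overlapped in set 2 for all 4. Myh11, the smooth muscle myosin, was at 6.42, 6.70, 7.86 and 8.16 in KO arrays 1 to 4 and 6.33, 6.83, 7.59 and 8.33 in WT, with a difference of 0.02 (SE 0.19). That difference turned to -0.0051 when arrays were centred on their medians. Acta2, smooth muscle actin, differed by -0.15 (SE 0.16), Tagln, the actin-binding transgelin, by -0.03 (SE 0.17) and Cnn1, a calponin, by -0.04 (SE 0.11). In set 1 Tagln and Cnn1 were lower in both KO arrays than in WT, and Cnn1 was not above background in either KO array there.

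Capillary and mural genes are set side by side by their mean over members on each array. Capillary genes averaged 7.13 and 7.26 in KO and 7.05 and 7.37 in WT in set 1, and 8.81 and 8.89 against 8.76 and 8.84 in set 2, so the groups overlapped in both sets. Mural genes averaged 7.18 and 7.39 in KO against 7.25 and 7.46 in WT in set 1. In set 2 they averaged 8.92 and 8.88 against 9.05 and 9.32, with KO below WT by 0.29 on average. The pericyte genes carried that gap, at 9.20 and 9.14 in KO and 9.63 and 9.72 in WT. Among these, Cspg4 differed most in set 2, by -1.24, and Rgs5 least, by 0.01. Smooth muscle genes stood at 8.49 and 8.48 in KO and 8.18 and 8.72 in WT. Tip cell genes are left out of this comparison of means, since Apln and Esm1 were at background.

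**Figure D3:**
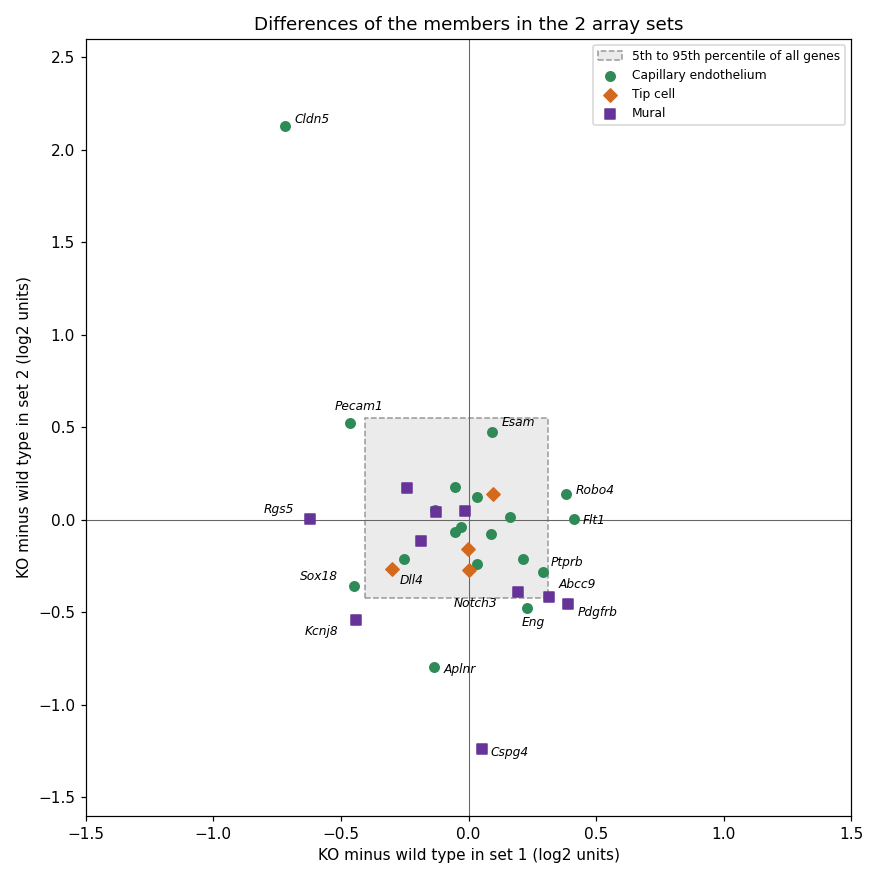
KO minus WT of the 33 genes in log2 units, set 1 on the horizontal and set 2 on the vertical axis, by class; the grey box spans the 5th to the 95th percentile of all genes in each set (-0.41 to 0.31 and -0.42 to 0.55). Cldn5, at -0.72 and 2.13, and Cspg4, at 0.05 and -1.24, lie farthest outside the box, and Sox18 and Kcnj8 lie to its left and below 0 in both sets.

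The other genes of vessel signalling and vessel types, in 7 lists with 111 of 116 genes measured, were spread in the same way. With the set as a block 0 of the 111 passed, 50 were higher and 61 lower, and 4 had an unadjusted p under 0.05 (3.60%, beside 4.82% of all genes).

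Of 20 ligands, 9 were higher and 11 lower, with a median of -0.027. Angpt1, which mural cells supply to Tek, had the smallest unadjusted p there and differed by -0.34 (SE 0.17), and Sema3c, a guidance ligand, by -0.22 (SE 0.12). Vegfa, the VEGF that signals through Kdr, read 12.48 and 12.80 in KO against 12.31 and 12.70 in WT, then 13.75 and 13.79 against 13.76 and 13.73, a difference of 0.08 (SE 0.11). Vegfb, which binds Flt1, was at 10.53 and 10.60 in KO and 11.53 and 11.08 in WT in set 2. The Vegfb difference was -0.74 there (adjusted p = 0.138) and 0.16 in set 1.

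Of 18 measured receptors, 6 were higher and 12 lower, with a median of -0.033. Ednrb, an endothelin receptor, read 8.43 and 8.55 in KO against 7.88 and 8.15 in WT in set 1, and 10.40 and 10.53 against 10.10 and 10.45 in set 2, a difference of 0.33 (SE 0.12, adjusted p = 0.984). Its groups overlapped in set 2 only. Nrp2, a VEGF and semaphorin co-receptor, differed by -0.53 (SE 0.27). Among 20 targets and regulators, 10 were higher and 10 lower. Sox7, the third SoxF factor, differed by -0.44 (SE 0.17), with -0.13 in set 1 and -0.75 in set 2, where KO at 5.31 and 5.46 lay below WT at 6.39 and 5.88. Hey1, a Notch target, differed by -0.34 (SE 0.18).

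The 3 genes that follow are examples of large differences between the sets that did not pass, and they are described because of their values. Klf2, a transcription factor induced by blood flow, read 5.80 and 5.71 in KO against 5.74 and 6.06 in WT in set 1, and 7.76 and 7.59 against 6.57 and 6.76 in set 2. KO was above WT in set 2 by 1.01 (adjusted p = 0.0798), with overlap in set 1. Hey2, an arterial Notch effector, differed by -0.61 in set 1 and 0.85 in set 2, and Tgfbr2, a TGF-beta receptor, by -0.93 and 0.76. Of other Notch targets, Hey1 had the same sign in both sets, at -0.26 and -0.42. The differences between the sets of Klf2 (adjusted p = 0.0668), Hey2 (adjusted p = 0.0991) and Tgfbr2 (adjusted p = 0.121) did not pass. Large differences that did not pass were also found in other genes of these lists, with either sign. Among them were Cavin2 (1.93, limma adjusted p = 0.111), Mcam (1.67, 0.118), Plxnd1 (-1.11, 0.110) and Cavin1 (-1.03, 0.108). Plxnd1 differed by 0.52 in set 1 and -0.59 in set 2.

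Of 14 genes listed for fatty acid transport by endothelium, 10 were lower, with a median of -0.057, where 14561 of all 30702 genes were lower. Cav2, a caveolin of the membrane pits that are abundant in capillaries and adipocytes, read 9.62 and 9.39 in KO against 10.03 and 10.22 in WT in set 1. In set 2 it read 12.06 in both KO arrays against 12.36 and 12.42. KO was below WT in both sets, with differences of -0.61 and -0.32, and the difference over both was -0.47 (SE 0.10, adjusted p = 0.984). Cavin1, a caveolar coat protein, differed by 0.04 in set 1 and -0.99 in set 2 (adjusted p = 0.0882), where it read 9.07 and 8.57 in KO and 9.84 and 9.78 in WT. Cavin2 of the same list ran the other way, by -0.89 in set 1 and 1.03 in set 2. Its KO values lay below WT in set 1 and above WT in set 2, without overlap. Gpihbp1, the capillary anchor of lipoprotein lipase, differed by -0.62 and 0.84, and its WT arrays of set 1 lay apart at 10.47 and 11.98. Caveolar genes and others of this list are also expressed by adipocytes, so these values are not those of endothelium alone.

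Of 15 arterial and venous genes, 6 were higher and 9 lower, with a median of -0.026. Vcam1, a leukocyte adhesion molecule, read 5.33 and 5.32 in KO against 5.09 and 5.06 in WT in set 1, and 6.50 and 6.92 against 6.22 and 6.51 in set 2, a difference of 0.30 (SE 0.11, adjusted p = 0.984). Its groups overlapped in set 2 only. Of 6 measured lymphatic genes, 4 were higher and 2 lower. Those 2 were Lyve1, the hyaluronan receptor, at -0.26 (SE 0.18), and Flt4, the receptor of VEGF-C, at -0.08 (SE 0.06). Flt4 was lower in KO than in WT in both sets.

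Among 24 other measured mural and smooth muscle genes, 12 were higher and 12 lower, with a median of -0.00050. Steap4, a metalloreductase expressed in pericytes and adipocytes, differed by 0.27 (SE 0.14) and Tgfb1i1, a focal adhesion protein, by 0.14 (SE 0.09). Srf, the transcription factor that drives contractile genes, was the 1 gene of these lists that passed in the test between the sets. It read 5.56 and 5.47 in KO against 6.21 and 6.06 in WT in set 1, and 7.96 and 7.80 against 6.92 and 7.18 in set 2. KO lay below WT in set 1 and above it in set 2, with differences of -0.61 and 0.84, and the difference between the sets was 1.45 (SE 0.18, adjusted p = 0.0436). Its call was lost when any 1 array was left out (adjusted p from 0.0673 to 0.158) and with an intensity trend (adjusted p = 0.0669). Within the sets neither Srf nor the contractile genes it is known to drive passed. Between the sets the contractile members differed with the sign of Srf, and none passed. The differences were 0.07 (SE 0.34) for Acta2, 0.41 (SE 0.32) for Tagln, 0.17 (SE 0.21) for Cnn1 and 0.06 (SE 0.39) for Myh11. Other contractile genes, in the list that holds Srf, had either sign and did not pass. Myl9 (0.25), Smtn (0.34) and Lmod1 (0.04) had the sign of Srf. Tpm2 (-1.96), Synpo2 (-0.37), Tpm1 (-0.36), Cald1 (-0.19), Actg2 (-0.10) and Mylk (-0.09) had the other sign. Whether any of these genes follow Srf was not tested.

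Markers of other cells varied between the arrays as well. Skeletal muscle markers (16 of 16 measured, 0 of them never above background) averaged 6.47, 9.31, 6.05 and 10.72 in KO arrays 1 to 4 and 8.32, 7.83, 11.08 and 9.45 in WT, so KO replicate 3 was far below the other arrays of set 2. KO replicates 3 and 4, the arrays of a genotype and set that were farthest apart in muscle markers, read 9.14 and 9.29 for Cldn5 and 5.69 and 5.44 for Cspg4. Without KO replicate 3 the set 2 difference was 2.20 for Cldn5 and -1.37 for Cspg4, each resting on 1 KO array, and the part of muscle tissue in these values was not tested. Liver markers (11 of 12 measured) averaged 13.06, 10.04, 6.32 and 6.81 in KO and 9.73, 7.84, 6.45 and 6.32 in WT, above WT in the KO arrays of set 1. Their part in the set 1 values was not tested.

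Other lists lay apart in set 2 as the pericyte genes did. Fibroblast markers (9 of 10 measured) averaged 8.11 and 8.05 in KO and 8.32 and 8.34 in WT of set 2, and nerve and Schwann cell markers (7 of 10 measured, with Sox10 and Th never above background) 6.65 and 6.71 against 6.86 and 6.89. Unlike the pericyte genes, the nerve list also lay below WT in set 1, at 5.23 and 5.17 against 5.36 and 5.38. Macrophage markers (10 of 10) were above WT in set 2, at 7.65 and 7.88 in KO against 7.36 and 7.57, and overlapped in set 1. Adipocyte markers (12 of 12) overlapped in set 2, at 16.06 and 15.42 in KO against 15.76 and 15.90, and were below WT in set 1, at 14.42 and 14.72 against 15.00 and 14.98. Their part in the vascular differences was not tested. Blood markers were measured for 3 of 11 genes (Slc4a1 and Epb42 never above background). Lymphocyte markers were measured for 9 of 10, and their defining genes Cd4, Cd8a, Cd79a and Ms4a1 were never above background.

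**Figure D4:**
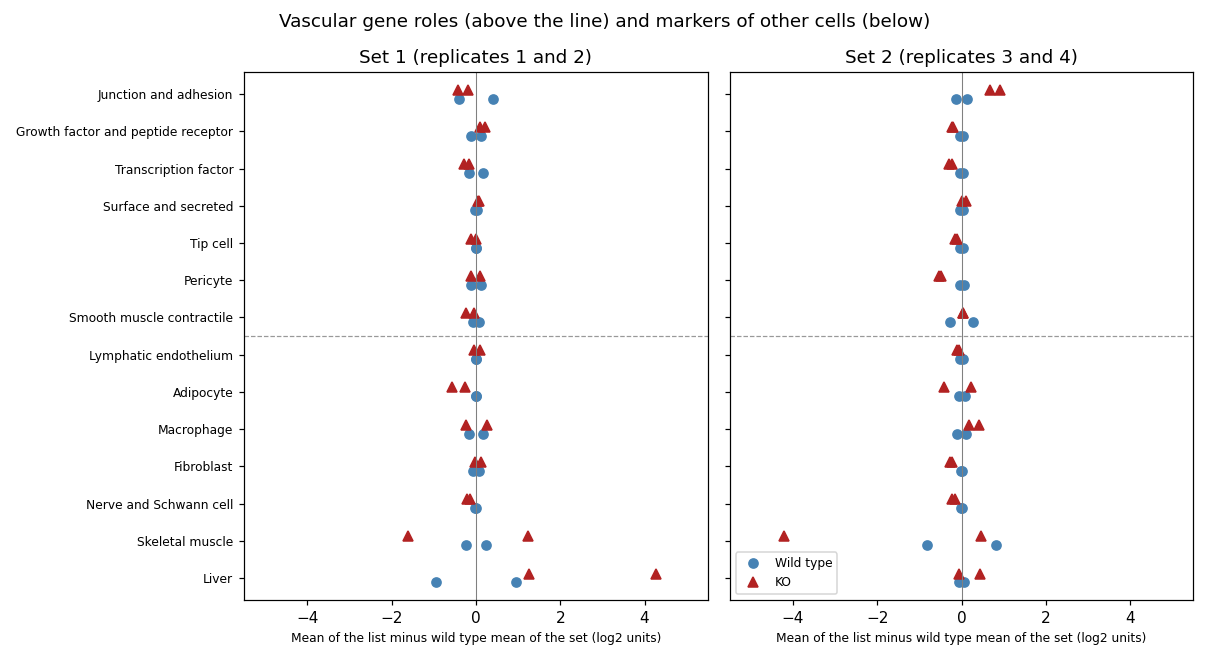
Mean of each gene list on each array minus the WT mean of its set, in log2 units (circles for WT, triangles for KO), for vascular roles above the dashed line and markers of other cells below it. In set 2 junction genes, whose mean Cldn5 (2.13) raises, lie to the right of both WT arrays. Pericyte genes, whose mean Cspg4 (-1.24) lowers most, lie to the left of both in that set. Of the 4 tip cell genes, 2 are at background. Muscle markers in set 2 and liver markers in set 1 spread over a far wider range than any vascular role.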

How the data were processed

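Total RNA of 8 interscapular brown fat depots was hybridised to 1 Affymetrix array each. The deposited values are log2 RMA expression values, which the authors made with Affymetrix Expression Console at the level of core exons, per the labels. No source used here gives software versions, the annotation or the build. A Clariom S array is named in the design text, but the table holds 72688 probe sets, so the array type is not settled. Of these, 31258 have 1 gene in the platform annotation, 1492 several and 33206 none, beside 6732 controls. Symbols were updated through a RefSeq table (GRCm38.p6), which matched 31256. Where several probe sets measured a gene (441 genes, 0 members), it took the one with the highest mean, which gave 30702 genes. Scanner files were not used here.

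Replicates 1 and 2 form set 1 and replicates 3 and 4 set 2, which seem to have been normalized apart, since medians and highest values (19.93 against 19.68 to 19.77) differ. Differences were fitted over all 30702 genes with limma 3.58.1 in R 4.3.3, once with the set as a block and once with 4 means (genotype by set, pooled spread), which gave the within-set differences and their contrast. P-values were adjusted by Benjamini-Hochberg with a threshold of 0.05, and fold changes are 2 to the power of the log2 difference. The fits were tested on simulated data. The number of arrays, 2 per genotype and set, limits the precision.

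The members and lists were chosen with earlier results of these data known. Every member is accounted for. Values on every array are given for members whose groups do not overlap in the same direction in both sets, for those with an unadjusted p under 0.05 in the blocked fit or between the sets, and for the 2 largest differences per class and direction; Cdh5, Kdr, Rgs5 and Pdgfrb (set 2) were added after their values were seen. Of each pathway list the 2 genes with the smallest unadjusted p are named. Vegfa, Vegfb, Klf2, Hey2, Tgfbr2, Plxnd1, Cavin1 within sets, Cavin2, Mcam, Gpihbp1, Flt4 and Srf were described after their values were seen. The same holds for the contractile genes named from the list of Srf. Efnb2, Hey1, Sema3g, Ephb4, Nr2f2 and Flt4 are in more than 1 list. The labels give both genotypes replicate numbers 1 to 4. Deviations from the group means correlated at 0.701, 0.473, 0.479 and 0.610 between same-numbered arrays, and at 0.107, 0.107, -0.089 and -0.089 once the set was removed. Alternatives were no block, a replicate block, a filter on low values, an intensity trend, quantile normalization within sets, median centring, the mean of probe sets, each set alone and leaving out each array.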

Additional observations from a re-analysis of the deposited data

Results flagged for a closer look

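Among the 4 WT arrays, Cldn5 in WT replicate 1, at 5.86, lay far from the other values of 6.97, 7.11 and 7.07. The WT arrays span both sets, and set 1 values are lower in general. Of 66 groups of 4 arrays examined (33 genes in each genotype), this was the 1 that stood out. The rule marks about 1 in 20 by chance in groups of like arrays, a rate that does not hold where 2 sets are mixed. Within set 1 it was WT replicate 2, at 6.97, that lay apart from WT replicate 1 and from KO at 5.80 and 5.60.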

How the results depend on the processing

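With the set as a block 0 genes passed (1481 at an unadjusted p under 0.05), as with no block (38), with the replicate block (1234) and with 1 array left out (0 to 1 genes, 1 without KO replicate 3). The replicate block, whose numbers share little once the set is removed, left the class medians at 0.0053 (capillary), -0.11 (tip cell) and -0.074 (mural) and changed no call of a member. Within set 1, 0 genes passed (2375 unadjusted), and 0 to 14 with 1 array left out, 14 without KO replicate 2. Within set 2, 1 gene passed (4629 unadjusted), 12 with the filter on low values, 0 after quantile normalization, 0 with the set fitted alone, and 0 to 10 with 1 array left out (10 without KO replicate 3, 9 without WT replicate 4, 3 without KO replicate 4, and 0 without WT replicate 1, 2 or 3). Between the sets 153 passed, 342 with the filter, 4 with the trend, 82 with median centring, and 0 to 10 with 1 array left out. The causes of these changes in counts were not tested. Mural medians ran from -0.21 (without KO replicate 2) to -0.016 (without WT replicate 4), capillary medians from -0.065 to 0.048 and tip cell medians from -0.15 to -0.048. Quantile normalization moved the capillary median to -0.0055 and median centring to -0.017. The direction of Myh11 turned with median centring (-0.0051) and in 4 of 8 arrays left out (range -0.14 to 0.16), and that of Esm1 without WT replicate 3 (range -0.22 to 0.0068). Cldn5 between the sets was called only with the filter (adjusted p = 0.0411). The alternatives were run for 16 members, 5 of them (Pecam1, Eng, Ptprb, Abcc9 and Notch3) for the difference between the sets only, and the others of these kept direction and call. Median centring moved the median of all genes from 0.0074 to -0.015, so the signs of members nearer 0 than that shift, such as Kdr, Nos3 and Ptprb with the set as a block, are not settled. Signal near background limits Apln and Esm1 in both sets, and Sox17, Sox18, Cnn1, Angpt2, Aplnr, Plvap and Vwf in set 1.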
